A study of Homo sapiens with 4 samples.

Results

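Cytosolic heat shock proteins are the chaperones that fold, hold and refold proteins outside the membrane-bound organelles. Here they are represented by 10 genes, taken from the deposited expression table by their symbols. HSPA1A, HSPA1B and HSPA8 are of the HSP70 group, and HSPA4 and HSPH1 of the HSP110 group. The others are the HSP40 gene DNAJB1, HSP90AA1, HSP90AB1, the small heat shock gene HSPB1 and the co-chaperone BAG3. All 10 were found among the 57815 genes of the table. All 10 also averaged 1 FPKM or more across the libraries, as did 14815 genes in all. RNA-Seq with single reads was done on 2 biological replicates of 3′ WRE-Mut cells and 2 of control cells. Control cells (wild type in the labels) are parental HCT116 cells, a human line established from a colorectal carcinoma. The 3′ WRE-Mut cells (MYC 3' TBE1 knockout in the labels) are a clone derived from them that CRISPR/Cas9 editing left without TBE1, a TCF binding element of the Wnt-responsive element 3′ of MYC, on both alleles. Both kinds of cells were grown in the same medium and at the same temperature, and the labels name no heat or drug treatment. Both 3′ WRE-Mut libraries come from the same clone, so the deletion and other differences between this clone and the parental population cannot be told apart.

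Cells meet heat, oxidation or a surplus of unfolded protein with the heat shock response. In it the transcription factor HSF1, held inactive by chaperones in resting cells, binds heat shock elements, which are inverted repeats of the letters GAA, and raises transcription of HSP70, HSP90, HSP40 and HSP110 genes. HSP70 proteins bind exposed hydrophobic stretches in a cycle driven by ATP. J-domain proteins such as DNAJB1 deliver clients and stimulate the ATPase, and nucleotide exchange factors such as HSPH1, HSPA4 and BAG3 reset it. HSP90 acts later on kinases and steroid receptors, and small heat shock proteins hold unfolded clients without ATP. Cancer cells often carry high levels of these chaperones.

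The values are FPKM, a read density scaled by transcript length and by the mapped fragments of the library, which the authors made per library. The table gives no read counts, so depth is unknown. The number of genes above 0 ran from 26851 to 29356 over the libraries. In bulk RNA, fewer expressing cells and less RNA per cell cannot be told apart. MYC was at 48.04 and 34.2 FPKM in 3′ WRE-Mut libraries, against 111 and 113 FPKM in control libraries. All 8 epithelial markers, EPCAM and keratins among them, were at 1 FPKM or more in every library. Their levels were not the same in both groups. For 6 of the 8 both 3′ WRE-Mut values were below both control values, and for 1 both were above. Of all genes averaging 1 FPKM or more, 30.6% and 28.7% were so. KRT18 was at 226 and 201 FPKM in 3′ WRE-Mut libraries, against 697 and 496 FPKM in control libraries. Of 15 fibroblast, immune and endothelial markers, 13 were below 1 FPKM in every library, PTPRC, DCN and CDH5 among them. COL1A1 was at 20.9 and 28.5 FPKM in 3′ WRE-Mut libraries, against 14.3 and 16.9 FPKM in control libraries, and CD68 at 68.5 and 70.2 FPKM, against 39.6 and 41.6 FPKM in control libraries. Groups were compared with limma on log2(FPKM + 1), with Benjamini-Hochberg adjustment and a threshold of 0.05. The comparison was made over all 14815 tested genes, and again over the 11631 protein-coding genes among them, because the gap between replicates had a smaller SD there (0.55 between 3′ WRE-Mut libraries and 0.36 between control libraries, on the log2 scale) than over all tested genes (1.02 and 0.89).

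Of the 10 genes, HSPH1 was lower in 3′ WRE-Mut cells and passed in the test over protein-coding genes, and DNAJB1 came next, higher in 3′ WRE-Mut cells with an adjusted p just above the threshold. HSPA8, HSP90AB1 and HSP90AA1 differed more between the 3′ WRE-Mut libraries than between the groups. Over protein-coding genes, 1 of 10 passed, lower, where 8.33% of all protein-coding genes passed in either direction, 4.02% as higher and 4.31% as lower. Over all tested genes limma called 0 of 10, where 0.189% of genes passed, and 2 of 10 had an unadjusted p under 0.05, HSPH1 and DNAJB1, where 22.2% of all tested genes did. The 3′ WRE-Mut and control libraries did not overlap for 5 of 10 genes, 3 higher and 2 lower, against 59.3% of all tested genes, 28.7% higher and 30.6% lower. Their median log2 fold change was 0.14, with 7 above 0, and that of all tested genes was −0.03, with 48.3% above 0. The shares that passed and that did not overlap were thus near those of the whole table.

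**Figure D1:**
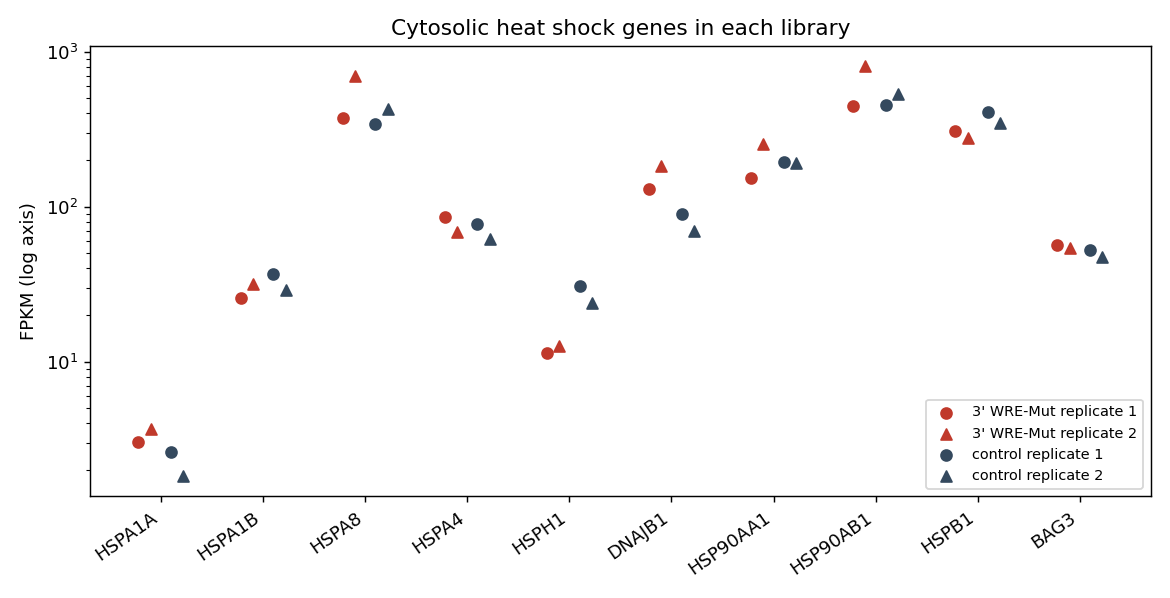
FPKM (log axis) of the 10 cytosolic heat shock genes, with 1 point per library: red for 3′ WRE-Mut and dark blue for control, circles for replicate 1 and triangles for replicate 2. HSPH1 lies at 11.3 and 12.7 FPKM in 3′ WRE-Mut libraries, below both control libraries, and DNAJB1 at 130.02 and 182 FPKM, above both.

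By mean level over the 4 libraries, HSP90AB1 (559.7 FPKM) and HSPA8 (459 FPKM) were the most abundant of the 10, ranking 147 and 170 among 11631 protein-coding genes. HSPB1 (337 FPKM), HSP90AA1 (199 FPKM), DNAJB1 (118 FPKM), HSPA4 (73.4 FPKM), BAG3 (52.7 FPKM), HSPA1B (30.8 FPKM), HSPH1 (19.6 FPKM) and HSPA1A (2.80 FPKM) followed. The constitutive HSP70 and HSP90 genes thus stood above their heat-inducible counterparts. Between neighbours in this order the libraries did not overlap for HSPB1 and HSP90AA1, HSPA4 and BAG3, BAG3 and HSPA1B, and HSPH1 and HSPA1A, and they overlapped for the other pairs. The 10 genes together held 0.236% and 0.293% of the FPKM of all protein-coding genes in 3′ WRE-Mut libraries, against 0.234% and 0.233% in control libraries. In this share 3′ WRE-Mut replicate 2 was above the other libraries.

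HSPA1A and HSPA1B encode the main heat-inducible HSP70 and lie beside each other on chromosome 6 within the major histocompatibility complex. Their coding sequences, read from hg19, each have 1923 bases and differ at 4 positions, an identity of 99.79%. The reads had 50 bases, and 93.9% of the 50-base windows of the coding sequence are the same in both genes. Over whole transcripts, UTRs included, 73.7% of the 50-base stretches of HSPA1A and 71.6% of those of HSPA1B occur in the other gene, so the division of reads between them is uncertain. The last 73 coding bases are shown because 3 of the 4 differences lie there, at chr6:31785384-31785456 for HSPA1A and chr6:31797578-31797650 for HSPA1B (hg19, plus strand), with the differing bases in capitals.
HSPA1A: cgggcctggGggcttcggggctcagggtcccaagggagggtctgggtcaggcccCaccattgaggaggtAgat
HSPA1B: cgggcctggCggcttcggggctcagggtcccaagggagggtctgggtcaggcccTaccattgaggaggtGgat
Counted from 1 at the first base of the start codon, these are G1860C, C1905T and A1920G from HSPA1A to HSPA1B, and the fourth is G1710T.

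HSPA1A was at 3.05 and 3.67 FPKM in 3′ WRE-Mut libraries, against 2.62 and 1.84 FPKM in control libraries. Both 3′ WRE-Mut values were above both control values, with a log2 fold change of 0.44 (95% interval −0.21 to 1.08) and a limma adjusted p of 0.325 over protein-coding genes. HSPA1B was at 25.8 and 31.7 FPKM in 3′ WRE-Mut libraries, against 36.7 and 28.9 FPKM in control libraries, and the groups overlapped (log2 fold change −0.18, 95% interval −0.75 to 0.38). The summed FPKM of both genes was 28.9 and 35.4 FPKM in 3′ WRE-Mut libraries, against 39.3 and 30.7 FPKM in control libraries, which overlap. In the deposited table HSPA1A also shares a locus with HSPA1L, a testis-type HSP70 gene on the other strand, which was at or below 0.0774 FPKM in every library.

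HSPA8 encodes HSC70, the constitutive HSP70 that folds new proteins, uncoats clathrin and feeds chaperone-mediated autophagy. It was at 373 and 694 FPKM in 3′ WRE-Mut libraries, against 343 and 426 FPKM in control libraries. Only 3′ WRE-Mut replicate 2 was above the range of the control libraries. The log2 fold change was 0.41 (95% interval −0.31 to 1.14, limma adjusted p = 0.411 over protein-coding genes). With replicate 2 of 3′ WRE-Mut left out it was −0.035. With replicate 1 left out instead it was 0.86. The deposited locus of HSPA8, at chr11:122928197-122933938 (hg19), also holds the small nucleolar RNA genes SNORD14C, SNORD14D and SNORD14E.

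HSP90AB1, the constitutive cytosolic HSP90, was at 449 and 804 FPKM in 3′ WRE-Mut libraries, against 456 and 530.3 FPKM in control libraries. Its inducible counterpart HSP90AA1 was at 154 and 256 FPKM in 3′ WRE-Mut libraries, against 194 and 191 FPKM in control libraries. For both genes replicate 1 of 3′ WRE-Mut was below both control libraries and replicate 2 above both. The log2 fold changes were 0.29 for HSP90AB1 (95% interval −0.41 to 0.99) and 0.04 for HSP90AA1 (95% interval −0.59 to 0.68), with limma adjusted p of 0.555 and 0.929 over protein-coding genes. With replicate 2 of 3′ WRE-Mut left out these were −0.13 and −0.32, and with replicate 1 left out they were 0.71 and 0.41. The deposited locus of HSP90AA1, at chr14:102547075-102771537 (hg19), is merged with those of WDR20 and MOK.

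The gap between the 3′ WRE-Mut libraries, replicate 2 minus replicate 1 in log2(FPKM + 1), was 0.89 for HSPA8, 0.84 for HSP90AB1 and 0.72 for HSP90AA1. The gap between the control libraries of the same genes, again replicate 2 minus replicate 1, was 0.31, 0.22 and −0.02. Of the protein-coding genes 9.94%, 11.7% and 16.9% had a wider gap between the 3′ WRE-Mut libraries than HSPA8, HSP90AB1 and HSP90AA1. Of the 10 genes 7 were higher in replicate 2 of 3′ WRE-Mut than in replicate 1, and 8 were higher in control replicate 1 than in control replicate 2. Abundant genes in general shifted between replicates. Of the 500 protein-coding genes with the highest mean FPKM, 396 were higher in 3′ WRE-Mut replicate 2 than in replicate 1. Their median gap was 0.25, against a median of 0.00356 over all protein-coding genes. Between the control libraries, replicate 2 minus replicate 1, the medians were −0.216 for the 500 genes and −0.115 over all protein-coding genes. The part of these shifts in the gaps of HSPA8 and the HSP90 genes was not tested. The FPKM of protein-coding genes summed to 677397 and 814372 in the 3′ WRE-Mut libraries, against 722368 and 741991 in the control libraries.

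**Figure D2:**
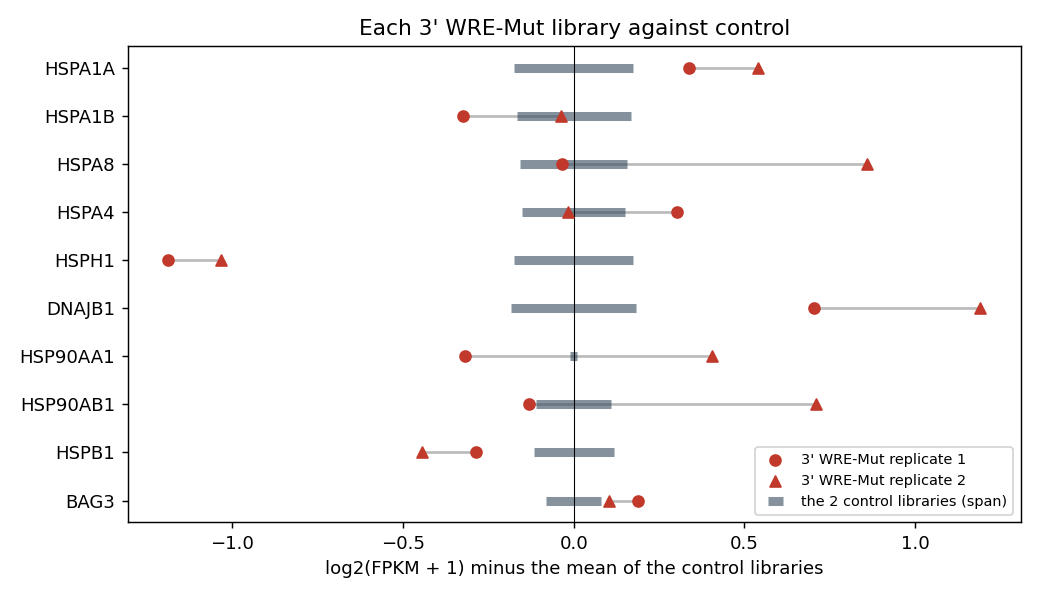
Log2(FPKM + 1) of each 3′ WRE-Mut library (circle for replicate 1, triangle for replicate 2) minus the mean of the control libraries, with the span of the 2 control libraries as a grey-blue bar. For HSPA8 replicate 1 lies at −0.035 and replicate 2 at 0.86, while for HSPH1 both lie near the same value, −1.19 and −1.03.

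HSPH1, also called HSP105, is the heat-inducible HSP110 protein, a nucleotide exchange factor of HSP70 that takes part in pulling apart aggregates. It was at 11.3 and 12.7 FPKM in 3′ WRE-Mut libraries, against 30.6 and 23.8 FPKM in control libraries. The groups did not overlap, and both 3′ WRE-Mut libraries gave nearly the same value. HSPH1 averaged 12.0 ± 0.988 FPKM in 3′ WRE-Mut cells and 27.2 ± 4.80 FPKM in control cells (SD, n = 2 each), a ratio of means of 0.441. Over protein-coding genes HSPH1 fell by 1.11 ± 0.25 on the log2 scale (SE), with a limma adjusted p of 0.0394. Its limma adjusted p among all tested genes was 0.156. Leaving out either control library ended the call, with a limma adjusted p for HSPH1 of 0.297 when replicate 1 was dropped and 0.165 when replicate 2 was. Leaving out a 3′ WRE-Mut library did not (0.00381 for replicate 1 and 0.00567 for replicate 2). The bounds that Cufflinks gave for each value were wide for this gene, from 0 to 34.2 FPKM in 3′ WRE-Mut replicate 2 and from 2.41 to 58.8 FPKM in control replicate 1. HSPH1 lies at chr13:31710762-31736525 (hg19), and 0.191% of its 50-base stretches occur elsewhere in the genome.

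HSPA4, also called APG-2, is the other exchange factor of this group among the 10 genes. It was at 85.7 and 68.5 FPKM in 3′ WRE-Mut libraries, against 77.02 and 62.3 FPKM in control libraries. The groups overlapped, and HSPA4 had a log2 fold change of 0.14 (95% interval −0.40 to 0.69). No test of the difference between the 2 genes was made. BAG3 joins HSP70 to small heat shock proteins and to selective autophagy. It was at 57.03 and 53.8 FPKM in 3′ WRE-Mut libraries, against 52.8 and 47.2 FPKM in control libraries. These did not overlap, but the log2 fold change of 0.15 (95% interval −0.36 to 0.65, limma adjusted p = 0.687 over protein-coding genes) did not pass.

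DNAJB1, the HSP40 that is most strongly tied to heat-induced HSP70, had the highest log2 fold change of the 10 genes and did not pass the test. It was at 130.02 and 182 FPKM in 3′ WRE-Mut libraries, against 90.2 and 69.8 FPKM in control libraries. The groups did not overlap, and each 3′ WRE-Mut library was above the higher control library. The bounds that Cufflinks gave were wide for DNAJB1 too, and those of the groups overlapped. They ran from 36.6 to 328 FPKM in 3′ WRE-Mut replicate 2 and from 12.8 to 168 FPKM in control replicate 1. DNAJB1 averaged 156 ± 37.04 FPKM in 3′ WRE-Mut cells and 80.0 ± 14.4 FPKM in control cells (SD, n = 2 each), a ratio of means of 1.95. The log2 fold change was 0.95, standard error 0.26, with a limma adjusted p of 0.0557 over protein-coding genes and 0.173 over all tested genes. With genes limited to a mean of at least 5 FPKM the limma adjusted p of DNAJB1 was 0.0453, and without the filter on low values it was 0.212. The log2 fold change of DNAJB1 was 1.19 with replicate 1 of 3′ WRE-Mut left out and 0.71 with replicate 2 left out. With control replicate 1 or 2 left out it was 1.13 and 0.77. The deposited locus of DNAJB1, at chr19:14625582-14676792 (hg19), is merged with those of TECR and MIR639, and 3.84% of its 50-base stretches occur elsewhere in the genome.

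HSPB1 encodes HSP27, a small heat shock protein that forms oligomers and guards actin filaments and unfolded clients. It was at 310.1 and 278 FPKM in 3′ WRE-Mut libraries, against 411 and 349 FPKM in control libraries. Both 3′ WRE-Mut values were below both control values, and HSPB1 did not pass (log2 fold change −0.37, 95% interval −0.90 to 0.16, limma adjusted p = 0.318 over protein-coding genes).

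**Figure D3:**
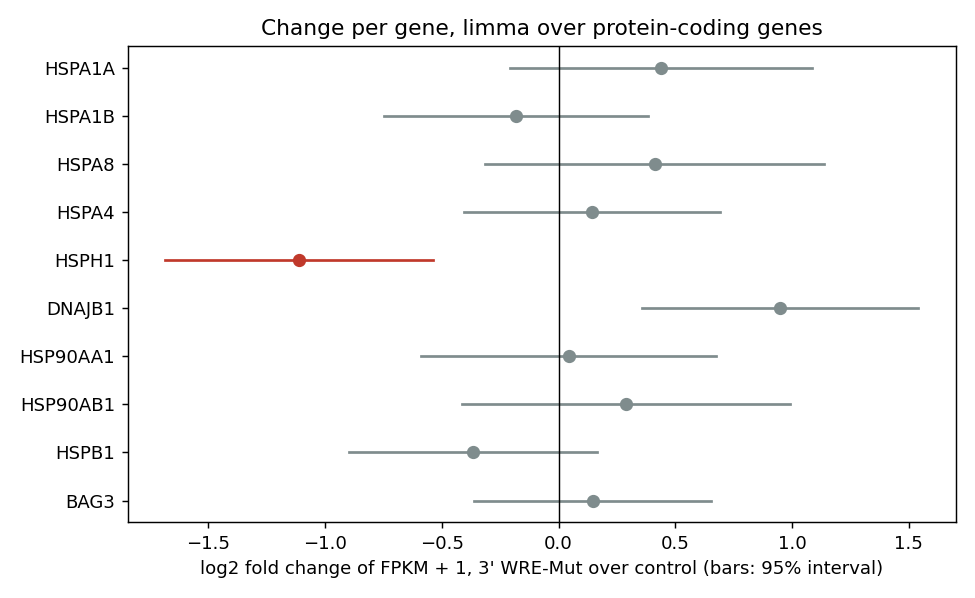
Log2 fold change of FPKM + 1, 3′ WRE-Mut over control, for each of the 10 genes, with 95% intervals from limma over protein-coding genes and the gene that passed in red. HSPH1 lies at −1.11 and passed, and the interval of DNAJB1 also lies above 0 although its adjusted p of 0.0557 did not pass.

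Sequence alike to other genes is not limited to HSPA1A and HSPA1B. Of the 50-base stretches of HSP90AA1, HSP90AB1 and HSPA8, 19.9%, 18.9% and 12.1% occur elsewhere in the genome without a mismatch, and 9.22% of those of HSPB1. For HSPA4 this was 0.0423% and for BAG3 0%. The table lists 17 HSPA8 pseudogenes, which summed to 0.384 and 0.315 FPKM in 3′ WRE-Mut libraries, against 0.513 and 0.737 FPKM in control libraries. The 4 HSP90AB pseudogenes summed to 2.06 and 7.94 FPKM in 3′ WRE-Mut libraries, against 3.71 and 3.43 FPKM in control libraries. These sums are small beside the parent genes.

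The promoters of the 10 genes were searched for heat shock elements, because HSF1 binds there. RefSeq promoters of all 10 genes were found, 15 entries in all, and the 250 bases before the start were read (GRCh38.p14, another build than the hg19 of the expression values). An element of 3 units was searched as GAANNTTCNNGAA and its reverse complement TTCNNGAANNTTC, and one of 2 units as GAANNTTC or TTCNNGAA, each its own reverse complement and contained in the longer motif. The 3-unit element was found in 3 of the 15 entries, 1 each of HSPA8, HSP90AA1 and HSP90AB1, against 0.441% of 35116 promoter entries. The 2-unit element was found in 7 of 15 entries, against 11.6% of all entries, and the E-box CACGTG, which MYC and its partner MAX bind, in 0 of 15 entries, against 6.34%. Of the 10 genes, the 3 with the 3-unit element are the same 3 whose levels differed most between the 3′ WRE-Mut libraries. This is a description over 10 genes, with no test. HSPA8, HSP90AA1 and HSP90AB1 also rank 170, 391 and 147 by level, and abundant genes in general were higher in 3′ WRE-Mut replicate 2. HSPB1, at rank 222, has no 3-unit element in its window and was lower in that replicate. Neither link was tested. Of all protein-coding genes 9.94% had a wider gap than HSPA8. Among them were HSPA5 (1.66) and HSP90B1 (1.31) of the endoplasmic reticulum, replicate 2 minus replicate 1 in log2(FPKM + 1). The promoters of HSPA8, HSP90AA1 and HSP90AB1 are shown with the elements in capitals. So are those of DNAJB1, which has the 2-unit element, and HSPH1, in which neither was found.
HSPA8, chr11:123062137-123062386, minus strand: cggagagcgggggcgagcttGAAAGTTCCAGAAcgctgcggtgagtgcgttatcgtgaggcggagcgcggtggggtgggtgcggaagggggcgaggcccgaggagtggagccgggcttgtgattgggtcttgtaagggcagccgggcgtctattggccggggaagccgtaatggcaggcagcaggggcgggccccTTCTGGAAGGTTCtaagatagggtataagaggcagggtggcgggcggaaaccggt
HSP90AA1, chr14:102087045-102087294, minus strand: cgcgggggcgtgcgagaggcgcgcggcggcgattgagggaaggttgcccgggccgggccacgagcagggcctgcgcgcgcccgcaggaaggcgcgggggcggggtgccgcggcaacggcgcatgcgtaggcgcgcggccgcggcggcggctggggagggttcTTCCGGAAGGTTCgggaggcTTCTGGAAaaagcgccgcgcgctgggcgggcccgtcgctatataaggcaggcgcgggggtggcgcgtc
HSP90AB1, chr6:44247693-44247942, plus strand: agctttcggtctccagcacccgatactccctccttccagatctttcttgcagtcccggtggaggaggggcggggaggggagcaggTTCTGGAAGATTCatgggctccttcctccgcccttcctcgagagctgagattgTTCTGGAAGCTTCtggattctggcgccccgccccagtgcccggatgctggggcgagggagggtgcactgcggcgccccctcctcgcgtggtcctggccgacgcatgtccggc
DNAJB1, chr19:14518398-14518647, minus strand: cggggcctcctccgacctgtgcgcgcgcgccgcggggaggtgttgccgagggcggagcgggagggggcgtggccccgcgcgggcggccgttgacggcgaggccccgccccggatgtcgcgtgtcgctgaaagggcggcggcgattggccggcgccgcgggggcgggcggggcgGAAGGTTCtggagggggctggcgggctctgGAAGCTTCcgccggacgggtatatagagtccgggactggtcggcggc
HSPH1, chr13:31162389-31162638, minus strand: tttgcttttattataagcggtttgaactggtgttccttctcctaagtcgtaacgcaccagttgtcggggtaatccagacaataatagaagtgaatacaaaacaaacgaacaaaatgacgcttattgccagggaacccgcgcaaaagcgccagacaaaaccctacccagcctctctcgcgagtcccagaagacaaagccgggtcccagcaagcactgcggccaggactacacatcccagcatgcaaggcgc
HSP90AA1, HSP90AB1 and DNAJB1 have other RefSeq starts, in whose windows no element was found. That no element was found says only that these letters are absent from the window.

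HSF1 itself was at 59.5 and 54.3 FPKM in 3′ WRE-Mut libraries, against 105 and 69.5 FPKM in control libraries. The groups did not overlap, and the log2 fold change of −0.58 did not pass (limma adjusted p = 0.174 over protein-coding genes). For HSF1 it was −0.29 with control replicate 1 left out and −0.87 with control replicate 2 left out. HSF4, best known for its role in the lens, was at 8.88 and 8.71 FPKM in 3′ WRE-Mut libraries, against 18.2 and 16.4 FPKM in control libraries, with a limma adjusted p of 0.0556 over protein-coding genes. CCAR2 was at 85.9 and 80.6 FPKM in 3′ WRE-Mut libraries, against 58.5 and 72.1 FPKM in control libraries. HSF2 lay between 8.81 and 10.5 FPKM in every library. Of 7 tested genes of the HSF family and its regulators, 0 passed over protein-coding genes. Over all tested genes 1 of 7, HSF4, had an unadjusted limma p under 0.05, as did 22.2% of all tested genes.

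Of 13 other heat-inducible targets of HSF1, limma called 1 higher and 2 lower, where 4.02% and 4.31% of all protein-coding genes were called. The median log2 fold change of these targets was 0.37, with 9 above 0, against 48.3% of all tested genes. The groups did not overlap for 8 as higher and 4 as lower, against 28.7% and 30.6% of all tested genes. HSPE1, the mitochondrial HSP10, fell, at 54.4 and 53.5 FPKM in 3′ WRE-Mut libraries, against 112 and 105 FPKM in control libraries. The deposited locus of HSPE1 holds 5 genes. SERPINH1, the collagen chaperone HSP47 of the endoplasmic reticulum, fell, at 17.1 and 13.1 FPKM in 3′ WRE-Mut libraries, against 32.2 and 29.7 FPKM in control libraries.

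Among the partners of HSP90, 0 of 19 tested protein-coding genes passed as higher and 3 as lower, where 4.02% and 4.31% of all protein-coding genes did. The median log2 fold change of these partners was −0.11. PPP5C, a phosphatase that docks on HSP90, was at 23.0 and 21.5 FPKM in 3′ WRE-Mut libraries, against 46.1 and 49.6 FPKM in control libraries (limma adjusted p = 0.0343 over protein-coding genes). PIH1D1, of the R2TP complex, was at 55.4 and 28.3 FPKM in 3′ WRE-Mut libraries, against 111 and 96.1 FPKM in control libraries. FKBP5, a co-chaperone of steroid receptors, was at 6.53 and 2.89 FPKM in 3′ WRE-Mut libraries, against 12.5 and 12.3 FPKM in control libraries, with a limma adjusted p of 0.0498 over protein-coding genes. The deposited loci of PPP5C, PIH1D1 and FKBP5 hold 3, 10 and 5 genes. Of 9 genes of HSP70 exchange and co-chaperone function, 0 passed over protein-coding genes. The 3 with the largest moderated statistic were BAG2, an inhibitor of the ubiquitin ligase CHIP, with a log2 fold change of −0.75, and BAG1 and BAG4, with log2 fold changes of 0.95 and 0.71.

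Of 21 other J-domain genes of the cytosol and nucleus, DNAJB2 alone passed over protein-coding genes, where 8.33% of all protein-coding genes passed. DNAJB2, which takes ubiquitylated clients to the proteasome, rose and was at 61.3 and 106 FPKM in 3′ WRE-Mut libraries, against 27.0 and 25.0 FPKM in control libraries (log2 fold change 1.60, limma adjusted p = 0.0248). The median log2 fold change of the list was 0.03. Of 7 other HSP70 and HSP110 genes 4 were tested and 0 passed over protein-coding genes. The ribosome-associated HSPA14 was at 13.8 and 22.1 FPKM in 3′ WRE-Mut libraries, against 7.91 and 9.07 FPKM in control libraries (limma adjusted p = 0.0710 over protein-coding genes), and HSPA2 and HSPA4L had log2 fold changes of −0.38 and 0.25. HSPA6, an HSP70 gene that is nearly silent without stress, was listed at 0 in all 4 libraries, in a deposited locus that holds 12 genes. Of 9 other small heat shock genes only HSPB8, the partner of BAG3, and HSPB11 passed the filter on low values, and 0 of the 2 passed the test. HSPB8 was at 11.8 and 11.3 FPKM in 3′ WRE-Mut libraries, against 6.89 and 5.96 FPKM in control libraries (limma adjusted p = 0.0912 over protein-coding genes), and HSPB11 had a log2 fold change of 0.12.

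**Figure D4:**
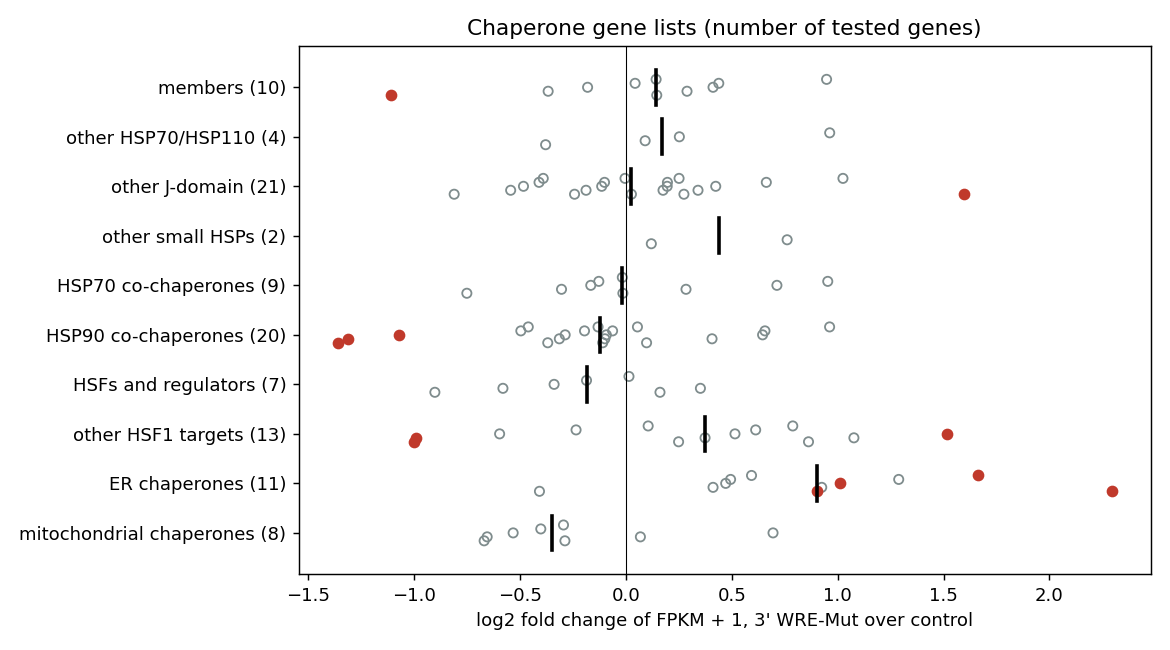
Log2 fold change of FPKM + 1, 3′ WRE-Mut over control, of each tested gene in the 10 heat shock genes (members, top row) and 9 other chaperone lists, with genes that passed over protein-coding genes filled in red and the median of each list as a black bar. The medians are 0.14 for the 10 genes and, for chaperones of the same families, 0.90 in the endoplasmic reticulum and −0.35 in mitochondria.

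The same families have members in other compartments. Of 11 such chaperones of the endoplasmic reticulum, 4 passed as higher and 0 as lower, where 4.02% and 4.31% of all protein-coding genes did. The median log2 fold change of this list was 0.90, with 10 above 0. DNAJC10, the list's gene below 0, had a log2 fold change of −0.41 and did not pass, and its groups did not overlap. Of 8 such mitochondrial chaperones, 0 passed, with a median log2 fold change of −0.35 and 2 above 0. HSPD1, HSPE1 and SERPINH1, of other families, were counted with the HSF1 targets instead. HSPE1 and SERPINH1 passed as lower there, and HSPD1, with a log2 fold change of 0.11, did not pass. Among the lists in which 0 passed, some genes reached an unadjusted limma p under 0.05 over all tested genes, as did 22.2% of all tested genes. They were 2 of 8 mitochondrial chaperones, 2 of 9 HSP70 co-chaperones and 1 of 7 genes of the HSF list. The others were 1 of 4 other HSP70 and HSP110 genes and 1 of 2 small heat shock genes. No test of the difference between these lists and the 10 cytosolic genes was made. HSPA5, the HSP70 of the endoplasmic reticulum, had a log2 fold change of 2.29 and HSP90B1, its HSP90, one of 1.66, where HSPA8 had 0.41 and HSP90AB1 0.29. The J-domain gene DNAJC1 and the exchange factor SIL1 also rose, with log2 fold changes of 0.90 and 1.01. The deposited loci of HSP90B1, DNAJC1 and SIL1 hold 5, 4 and 9 genes, and that of HSPA5 holds 1. The mitochondrial HSP70, HSPA9, was at 213 and 228 FPKM in 3′ WRE-Mut libraries, against 294 and 346 FPKM in control libraries, its exchange factor GRPEL1 at 31.3 and 31.2 FPKM, against 46.7 and 53.0 FPKM in control libraries, and DNAJC19 had a log2 fold change of −0.67. The median of the endoplasmic reticulum list was 0.56 in replicate 1 of 3′ WRE-Mut and 0.97 in replicate 2, and that of the 10 cytosolic genes was −0.08 and 0.26, both relative to the mean of the control libraries.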

How the data were processed

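PolyA RNA was sequenced as single reads. The submitters' notes and the methods name CASAVA 1.8.2 and the FASTX-Toolkit for read filtering and TopHat2 2.0.9 for alignment to hg19, and the authors deposited FPKM values per library, with lower and upper bounds, made with Cufflinks (2.2.1 in the submitters' processing notes, an earlier version in the methods) and the Gencode annotation. How reads that fit several places were shared out is not given in the sources used here, nor is the strand of the reads. A second deposited table holds group means and the authors' own comparison (fold changes, p-values and q-values), which were not used. The members and lists were chosen with earlier results of these data known. Genes averaging 1 FPKM or more were tested on log2(FPKM + 1) by limma 3.58.1 (R 4.3.3) with a variance trend, and then the protein-coding ones alone (classes from Gencode v44lift37). Genes outside the 10 were named if they passed the test (up to 6 by moderated statistic in each list) or else as the 3 with the largest moderated statistic. The values of 1 gene that passed are not reported here. HSF2, HSPA6, HSPA1L and the markers' values were added after their values were seen. Replicate numbers did not pair libraries. The 50-base stretches came from protein-coding Gencode transcripts and were matched without mismatch to both strands of hg19. Where 1 library was left out, the lone library of its group was assumed to vary like the other group. With 2 libraries against 2, p-values measure the spread between replicates of 1 clone and 1 parental population. Plots used matplotlib 3.10.9 (Python 3.11.15).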

Additional observations from a re-analysis of the deposited data

How the results depend on the processing

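Over all tested genes, limma called 0 of the 10 genes and 0 genes of the 9 other lists under every alternative run. Over protein-coding genes, HSPH1 was called under all alternatives other than leaving out a control library and dropping the filter on low values, where its limma adjusted p was 0.190 and 0 members and 0 genes of the other lists passed in either direction. DNAJB1 was called with a mean of at least 5 FPKM, with quantile normalization and with the replicate number as a block, each of which gave 1 member higher, and together with HSPA8 when replicate 1 of 3′ WRE-Mut was dropped. In the 9 other lists, 6 genes were higher and 5 lower, 3 and 2 with a pseudocount of 0.1, 16 and 8 with the replicate block, and 3 lower without a variance trend. Leaving out each library in turn gave 0 to 2 members higher, 0 to 1 lower, 0 to 24 genes of the other lists higher and 0 to 13 lower. The direction of 4 genes depended on the libraries. Log2 fold changes ranged from −0.016 to 0.30 for HSPA4, −0.035 to 0.86 for HSPA8, −0.32 to 0.41 for HSP90AA1 and −0.13 to 0.71 for HSP90AB1. HSPA4 turned below 0 when control replicate 2 (−0.0075) or replicate 1 of 3′ WRE-Mut was dropped, and HSPA8 and both HSP90 genes when replicate 2 of 3′ WRE-Mut was. Quantile normalization gave −0.11 for HSP90AA1 over all tested genes, and −0.13 for HSP90AA1 and −0.0080 for HSP90AB1 over protein-coding genes, where it also gave 0.062 for HSPA8, 0.016 for HSPA4, 0.031 for BAG3 and −0.60 for HSPB1 (limma adjusted p = 0.0768). Causes were not tested beyond what each alternative itself changes. Whether same-numbered libraries were handled together is not stated, and 2 pairs cannot settle it. The r of their deviations from the group means was 0.11 across 11631 genes. All protein-coding genes called higher and lower numbered 468 and 501, 1280 and 1582 with the replicate block, 250 and 263 with a pseudocount of 0.1, 0 and 1 without the filter, 2018 and 2316 without 3′ WRE-Mut replicate 1, 33 and 43 without control replicate 1, and 22 and 60 without control replicate 2. Depth is unknown, so no limit by counting error could be set.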

Other observations

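The protein-coding genes whose profile over the 4 libraries was nearest to the mean profile of the 10 heat shock genes were VARS, a valyl-tRNA synthetase, ALG9, a mannosyltransferase, and TIMM50, a mitochondrial import protein. Their root mean square differences from it were 0.00861, 0.00871 and 0.0158 in log2(FPKM + 1) over 4 libraries. VARS was at 91.8 and 114 FPKM in 3′ WRE-Mut libraries, against 102 and 92.9 FPKM in control libraries. Over so few libraries many genes come close to any profile.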
